A study of Mus musculus with 2 samples.

Results

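Chemokines are small secreted proteins that guide cells through G protein-coupled receptors, and their names follow the spacing of the first cysteines (CC, CXC or CX3C). In skin wounds, CXC ligands such as *Cxcl1* and *Cxcl2* are known to draw neutrophils through *Cxcr2*, and CC ligands such as *Ccl2* and *Ccl7* draw monocytes through *Ccr2*. Others, such as *Cxcl12* and the *Ccr7* ligands *Ccl19* and *Ccl21a*, act in resting tissue and in lymphatic traffic. All ligands whose symbol starts with Ccl or Cxcl and a number, and *Cx3cl1*, were followed through the sorted dermal cells of healed mouse wounds. These were 43 of the 27998 genes counted, under 37 distinct symbols (30 Ccl rows, 12 Cxcl rows and *Cx3cl1*). Of these, 29 had at least 20 transcript counts over both libraries and 21 had at least 200.

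Too low for any value were *Cxcl13* (17 counts), the *Ccl21b* copy on an unplaced scaffold (11 counts), *Ccl1* (4 counts), *Cxcl17* (1 count) and a scaffold copy of *Ccl27a* (1 count). The other 9 rows had no count: *Ccl21b* and *Ccl27b* on chromosome 4, *Cxcl15*, *Ccl26*, and scaffold copies of *Ccl19*, *Ccl21a*, *Ccl21c* and *Ccl27a*. Near-identical copies of *Ccl19*, Ccl21 and Ccl27 can share reads, so their values are uncertain. *Ccl27a* overlaps *Il11ra1*, *Cxcl10* overlaps *Art3* and *Cxcl16* overlaps *Zmynd15*, and the strand counted is not given in the sources used here. The platelet and lymphocyte chemokines *Pf4*, *Ppbp* and *Xcl1* fall outside the naming rule.

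Both groups were mice of 4 to 5 weeks that carried SM22rtTA and tetO-Cre with R26-Tomato, a red reporter. The SM22-SmoM2 mice also carried R26-SmoM2, an active form of the Hedgehog (Hh) receptor component *Smo*, where controls had the reporter alone. Doxycycline chow (20 g/kg) was given from day 1 after wounding, and wound dermis was taken 3 days after re-epithelialization. The SM22 promoter, that of *Tagln*, drives rtTA, so the Cre-dependent alleles are switched on in cells in which it was active. Wounds of several mice were pooled into 1 library per condition. There are no replicates, no test between conditions was possible, and every interval given is a 95% interval for counting error only.

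After filtering, 2856 control and 1792 SM22-SmoM2 cells remained, with 30103855 and 17814222 unique molecular identifiers (UMIs, each counting 1 transcript) in all and a median of 8607.5 and 8837.5 per cell. The cells were clustered without the chemokine and receptor genes and named from lineage markers, which gave 1097 and 1100 fibroblasts, 581 and 216 endothelial cells, 660 and 286 Schwann cells, 261 and 93 mural cells, and 65 and 24 immune cells (control first), besides 16 and 1 keratinocytes. For each of these 5 lineages, all 7 of its markers were highest there. Another 176 and 72 cells lay in sub-clusters with markers of more than 1 lineage and were left out. In fibroblasts the Hh target *Gli1* was at 6.05 CPM (UMIs of the gene per 1000000 UMIs) in the control and 33.1 CPM in the SM22-SmoM2 library, with *Smo* itself at 52.1 and 57.1 CPM. Because UMIs tag the 3′ end once per transcript, levels of different genes are given without a length correction. Shares of cells with a UMI are from cells thinned at random to 1500 UMIs, which no cell fell below.

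*Cxcl1*, *Cxcl2* and *Cxcl3* were highest in the same 2 fibroblast sub-clusters. *Cxcl10* was highest in another, led by *Mmp13* and *Ctla2a* (117.5 CPM). It was nearly as high in 1 of the 2, led by *Areg* and *Mmp13* (116.2 CPM). The bases before the start sites of these 4 CXC genes of chromosome 5 are shown. They are the 250 bases before the RefSeq transcript start in GRCm38.p6, 5′ to 3′, at chr5:90890995-90891244 on the plus strand for *Cxcl1*, chr5:90903649-90903898 on the plus strand for *Cxcl2*, chr5:90785851-90786100 on the plus strand for *Cxcl3* and chr5:92348890-92349139 on the minus strand for *Cxcl10*. Capitals mark matches on either strand to the NF-kB motif, the TATA box (TATAAA), the interferon-response element (GAAA, any 2 bases, GAAA) and the AP-1 motif (TGANTCA).
Cxcl1: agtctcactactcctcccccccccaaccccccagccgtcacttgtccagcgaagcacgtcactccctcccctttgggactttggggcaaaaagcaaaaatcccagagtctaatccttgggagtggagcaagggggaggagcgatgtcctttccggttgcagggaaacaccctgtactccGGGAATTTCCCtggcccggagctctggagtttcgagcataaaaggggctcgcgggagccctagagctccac
Cxcl2: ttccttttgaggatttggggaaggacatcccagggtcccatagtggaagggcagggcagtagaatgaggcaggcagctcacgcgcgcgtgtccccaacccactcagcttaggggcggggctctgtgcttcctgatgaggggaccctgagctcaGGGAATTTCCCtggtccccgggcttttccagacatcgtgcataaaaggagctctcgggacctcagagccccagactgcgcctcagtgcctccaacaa
Cxcl3: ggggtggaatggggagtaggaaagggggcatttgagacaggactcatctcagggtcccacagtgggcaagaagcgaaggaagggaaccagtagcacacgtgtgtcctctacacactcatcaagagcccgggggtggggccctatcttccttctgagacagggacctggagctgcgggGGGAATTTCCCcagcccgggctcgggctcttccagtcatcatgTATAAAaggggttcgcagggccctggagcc
Cxcl10: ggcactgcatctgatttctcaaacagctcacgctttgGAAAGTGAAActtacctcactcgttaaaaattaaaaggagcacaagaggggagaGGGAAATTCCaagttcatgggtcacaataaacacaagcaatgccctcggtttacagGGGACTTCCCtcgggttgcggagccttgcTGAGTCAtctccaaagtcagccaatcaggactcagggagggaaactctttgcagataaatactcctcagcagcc
The same run of letters, GGGAATTTCCC, stood in the windows of *Cxcl1*, *Cxcl2* and *Cxcl3*, where it matches the NF-kB motif on both strands in overlap. *Cxcl10* held 2 other NF-kB matches, GGGAAATTCC and GGGACTTCCC, with 1 interferon-response match and 1 AP-1 match. Of the 29 ligands with enough counts, 21 had a window in the RefSeq table. An NF-kB match was found in 6 of these 21, against 3.9% of all 32851 windows of that length. The TATA box was found in 6 of 21 (all windows 12.4%), the interferon-response element in 3 of 21 (2.98%) and the AP-1 motif in 2 of 21 (6.75%). A match describes these letters and does not show binding. *Cxcl5*, *Ccl24*, *Cxcl16*, *Ccl2*, *Ccl7*, *Ccl11*, *Ccl5* and *Ccl4* were not in the table.

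The lineages shared their main ligands in part. *Cxcl1* was among the 3 most abundant ligands of fibroblasts, endothelial, Schwann and mural cells in both libraries, and of immune cells in the control. With both libraries weighted equally, 14 of 29 ligands were highest in immune cells, where 13.3% of all 14610 genes with 20 counts were highest. Fibroblasts were highest for 5 of 29 ligands (all genes 15.8%), namely *Cxcl1*, *Cxcl5*, *Cxcl9*, *Ccl25* and *Ccl27a*, although in 1 of the libraries mural cells were higher for *Cxcl1* (SM22-SmoM2, 1411 against 1322 CPM) and *Ccl27a* (control, 14.8 against 8.3 CPM), and Schwann cells for *Cxcl5* (SM22-SmoM2, 9.36 against 9.04 CPM) and *Ccl25* (control, 13.2 against 11.4 CPM). Endothelial cells were highest for 4 of 29 (all genes 26.4%), namely *Ccl21a*, *Cxcl12*, *Cx3cl1* and *Ccl28*. Mural cells were highest for 4 of 29 (all genes 21.2%), namely *Ccl2*, *Ccl11*, *Ccl19* and *Ccl20*. Schwann cells were highest for 2 of 29 (all genes 23.4%), namely *Cxcl10* and *Cxcl14*. *Ccl2* was highest in fibroblasts in the control (956 CPM, mural cells 829 CPM). In the SM22-SmoM2 library it was highest in immune cells (955.7 CPM), above mural cells (885 CPM) and fibroblasts (559.8 CPM). Mural cells were thus highest for it only in the mean of both libraries. The place of *Ccl20* rests on 1 mural UMI and that of *Ccl28* on 4 endothelial UMIs. Control immune cells held 17 of the 20 *Ccl24*, 26 of the 36 *Ccl22* and 113 of the 126 *Ccl17* UMIs. Each of these ligands passed 20 counts only through immune cells, so their place there was built in. That of *Cxcl3* rests on 9 control immune UMIs, and fibroblasts were highest for it in the SM22-SmoM2 library. *Cxcl9* differed little between fibroblasts and control endothelial cells (17.6 and 14.9 CPM), and *Ccl25* lay between 4.0 and 13.2 CPM in all 5 lineages and both libraries.

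**Figure D1:**
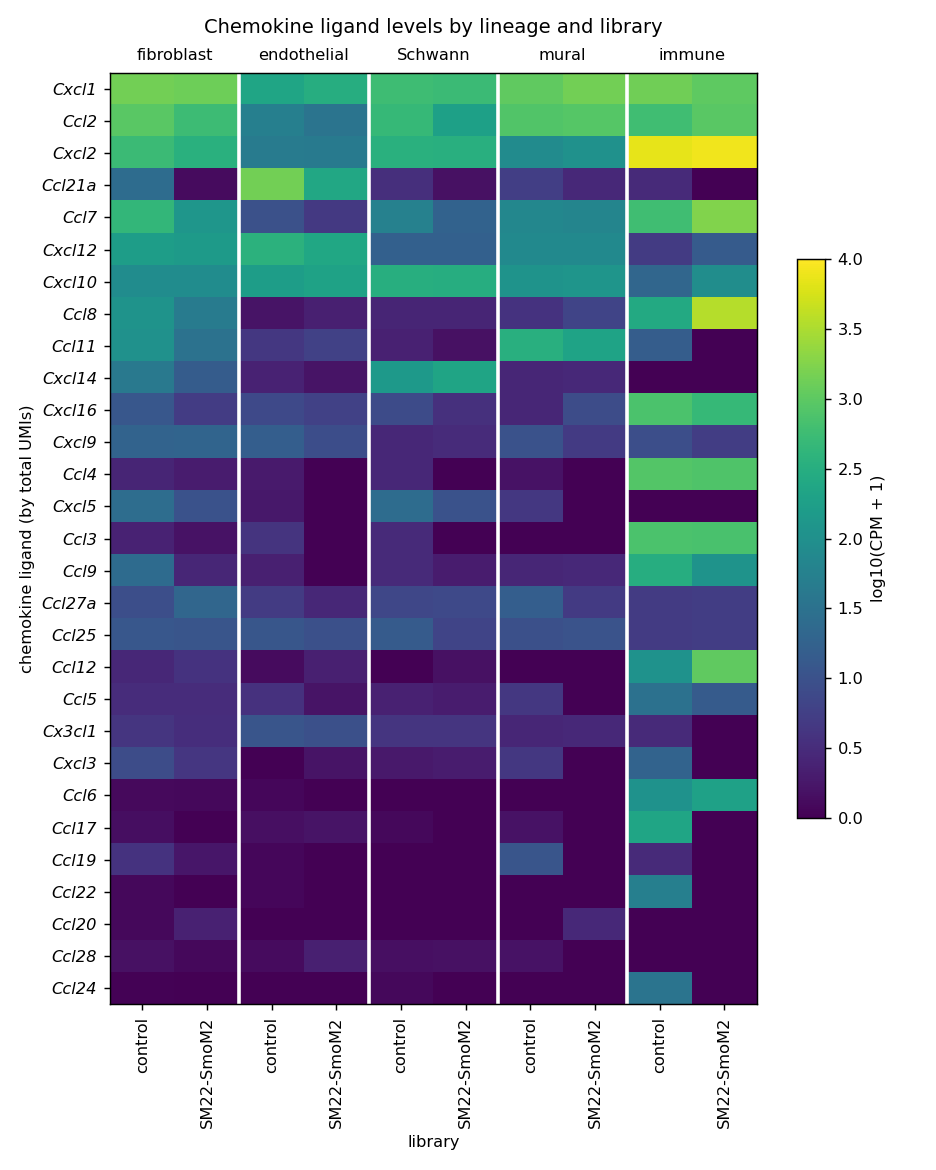
Levels of the 29 ligands with at least 20 UMIs, as log10(CPM + 1), in each of 5 lineages (columns in pairs, control then SM22-SmoM2). Cxcl1 and Ccl2 are high in fibroblasts, mural cells and immune cells of both libraries, Ccl21a in endothelial cells, Cxcl14 in Schwann cells, and Cxcl2 is the highest ligand of immune cells.

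Summed over all ligands, immune cells had 13067 CPM in the control and 19183 CPM in the SM22-SmoM2 library, the highest of the 5 lineages in both. An immune sub-cluster with macrophage markers (37 control and 23 SM22-SmoM2 cells) had 18783 CPM over both libraries. The other (28 and 1 cells) had 5283 CPM, and the part of this mix in the immune sums was not tested. Fibroblasts had 3965 and 2764 CPM, mural cells 2648 and 2914 CPM, endothelial cells 2349.8 and 1119 CPM, and Schwann cells 1992 and 1645 CPM. The log2 ratio of the sum was -0.52 in fibroblasts, but 0.10 without 1 sub-cluster of 112 control cells led by *Nov* and *Sfrp4*. That sub-cluster was picked for the highest summed ligand level and held no SM22-SmoM2 cell, so leaving it out could only raise the ratio. In endothelial cells the log2 ratio of the sum was -1.07, but -0.11 without cells with at least 2 lymphatic markers. In fibroblasts *Cxcl1*, *Ccl2* and *Cxcl2* together made 72.4% of the ligand UMIs in the control and 80.7% in the SM22-SmoM2 library.

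Fibroblast ligands were mostly lower in the SM22-SmoM2 library. Of 24 ligands with at least 20 fibroblast UMIs, 11 were at least 2-fold lower, while 6.25% of 13046 genes were. At least 2-fold higher were 2 of 24, *Ccl20* and *Ccl27a*, a share of 8.33% that is near the 6.32% of all genes. The median log2 ratio was -0.70 over the ligands and -0.06 over all genes. The 2-fold counts use the ratio alone, whatever its interval, and the lower ones include *Ccl21a*, whose control UMIs lay mostly in 1 cell.

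Among the *Cxcr2* ligands, which attract neutrophils, *Cxcl1* was the most abundant. It was at 1391 CPM (1371 to 1410.1) among control fibroblasts and 1322 CPM (1302 to 1342) among SM22-SmoM2 ones, a log2 ratio of SM22-SmoM2 over control of -0.073 (-0.10 to -0.043). A UMI of *Cxcl1* was found in 40.4% and 36.5% of these thinned cells (65.6% and 61.3% before thinning), in 44.8% and 49.5% of mural cells, and in 18.8% and 29.2% of endothelial cells. *Cxcl2* was at 525 and 348 CPM (-0.59, -0.65 to -0.54, given from here on in this form, the log2 ratio and its interval). *Cxcl5* was lower, at 26.2 and 9.04 CPM (-1.53, -1.85 to -1.23), but its ratio was only -0.38 after thinning. A UMI of *Cxcl5* was found in 1.82% and 1.45% of thinned cells, and 1 control cell held 96 of its 372 control UMIs. *Cxcl3* was at 7.39 and 3.36 CPM (-1.14, -1.69 to -0.61), with at least 50% of its UMIs in 3 control cells and 1 SM22-SmoM2 cell.

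The neighbouring CC genes *Ccl2*, *Ccl7*, *Ccl11*, *Ccl12* and *Ccl8* lie on chromosome 11 between 82035571 and 82116799 (GRCm38). *Ccl2*, the main monocyte attractant, was at 956 CPM (940.1 to 972) among control fibroblasts and 559.8 CPM (547 to 573) among SM22-SmoM2 ones, a log2 ratio of -0.77 (-0.81 to -0.73). *Ccl7*, which also acts on *Ccr2*, had a larger gap, with 437 CPM (426 to 448) and 125 CPM (118 to 131) (-1.81, -1.89 to -1.73). Cells with a UMI of *Ccl7* made 28.5% of control and 8.64% of SM22-SmoM2 fibroblasts (55.6% and 25.3% before thinning), against 1.2% and 0.926% of endothelial cells (8.95% and 2.78% before thinning), whose median depth was 8688 and 6175.5 UMIs where that of fibroblasts was 12471 and 10947.5. In immune cells the thinned shares were 18.5% and 50%. In fibroblasts *Ccl8*, a ligand of *Ccr8*, was at 110.5 and 45.8 CPM (-1.27, -1.41 to -1.13). *Ccl11*, the eosinophil attractant eotaxin, was at 104 and 31.8 CPM (-1.72, -1.88 to -1.55). *Ccl12* had 25 and 35 fibroblast UMIs, a ratio whose interval holds 0 (0.67, -0.11 to 1.47).

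*Ccl9*, a *Ccr1* ligand, was at 23.7 and 1.68 CPM (-3.82, -4.53 to -3.18), and 88.4% of its control UMIs came from 1 sub-cluster led by *Cst6* and *Thbs4*. *Cxcl14*, a ligand abundant in resting skin, was at 40.0 and 13.8 CPM (-1.54, -1.79 to -1.29), and *Cxcl16*, the membrane-bound *Cxcr6* ligand, at 11 and 4.16 CPM (-1.40, -1.88 to -0.94). *Ccl19* had 40 and 9 UMIs (-1.97, -3.20 to -0.90). *Ccl3* had 20 and 7 UMIs, and *Ccl4* had 23 and 13. In immune cells *Ccl3* was at 732 and 709 CPM and *Ccl4* at 845 and 796 CPM. The fibroblast ratio of *Ccl21a* (-6.29, -8.17 to -4.92) stood on 356 control UMIs, 288 of them in 1 cell with at least 2 lymphatic markers. It was -4.14 without the 5 top cells of each library. Control fibroblasts with no lymphatic marker had 4.91 CPM of *Ccl21a*. Control endothelial cells with none had a similar 4.57 CPM, and control mural cells 4.55 CPM.

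Several ligands did not differ by 2-fold. *Cxcl12*, the ligand of *Cxcr4* and of the scavenging receptor *Ackr3*, was at 167 and 152 CPM (-0.13, -0.22 to -0.044). The interferon-inducible *Cxcr3* ligands *Cxcl10* (-0.014, -0.13 to 0.10) and *Cxcl9* (0.053, -0.21 to 0.32) had intervals that hold 0, as had the *Ccr9* ligand *Ccl25* (-0.13, -0.48 to 0.21), *Cx3cl1* (-0.45, -1.17 to 0.26) and *Ccl5* (0.039, -0.75 to 0.82). *Ccl27a*, a skin ligand of *Ccr10* whose gene overlaps *Il11ra1*, was higher, at 8.3 and 20.0 CPM (1.27, 0.95 to 1.60). Its UMIs were spread over many cells, with at least 50% of them in 50 control and 91 SM22-SmoM2 cells. *Ccl20* had 3 control and 17 SM22-SmoM2 UMIs, and 13 of the latter were in 1 cell.

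**Figure D2:**
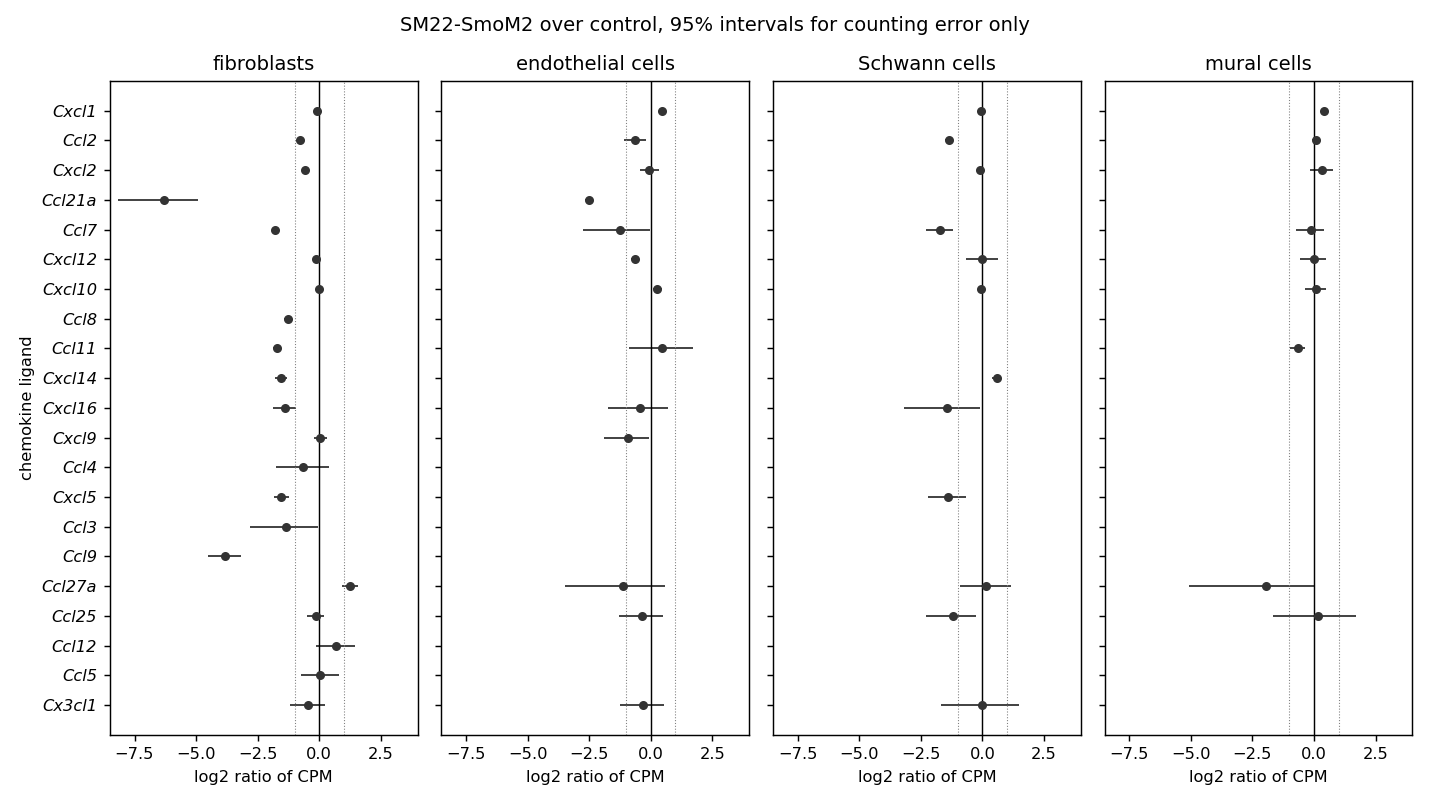
Log2 ratio of CPM, SM22-SmoM2 over control, for the 21 ligands with at least 200 UMIs in 4 lineages; points are shown for ligands with at least 20 UMIs in that lineage, bars are 95% intervals for counting error only, and dotted lines mark 2-fold. Most fibroblast points lie left of 0, Ccl27a lies to the right, and Ccl21a has the lowest fibroblast ratio.

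Fibroblast sub-clusters, named here by their leading genes, spanned a wide range, with *Cxcl1* from 153 to 6220.3 CPM. The *Nov*/*Sfrp4* sub-cluster, which also had high *Ptgs2*, held 112 control cells and no SM22-SmoM2 cell. It was highest for *Cxcl1* (6220.3 CPM), *Cxcl2* (2740.2 CPM), *Ccl2* (3679 CPM), *Ccl7* (1189 CPM) and *Cxcl3* (52.9 CPM). These 112 cells were 10.2% of control fibroblasts and gave 53.5% of their *Cxcl1*, 62.5% of their *Cxcl2* and 46% of their *Ccl2* UMIs. The *Areg*/*Mmp13* sub-cluster (5 control and 185 SM22-SmoM2 cells) was second for *Cxcl1*, *Cxcl2* and *Cxcl3*, with 3372 CPM of *Cxcl1*, 933 CPM of *Cxcl2* and 1167 CPM of *Ccl2*. It was 16.8% of SM22-SmoM2 fibroblasts and gave 49.1% of their *Cxcl1* UMIs. *Ccl7* was at 117 CPM there, near the median of 134 CPM over the 14 sub-clusters.

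A second set of ligands was highest elsewhere. The *Cst6*/*Thbs4* sub-cluster (58 control and 3 SM22-SmoM2 cells) had the highest *Ccl11* (811 CPM), *Ccl9* (445 CPM) and *Cxcl14* (411 CPM), with *Ccl2* at 3486 CPM and *Cxcl12* at 55.1 CPM. The *Mmp3*/*C4b* sub-cluster (56 and 3 cells) had the highest *Cxcl12* (1059 CPM) and *Ccl8* (476 CPM), and was second for *Ccl11* (454 CPM) and *Cxcl14* (283 CPM). It also held the fibroblasts' highest *Ccl3* (20.2 CPM) and *Ccl4* (29.4 CPM), and the highest sum of 6 macrophage markers, 82.7 CPM where the other 13 had 0 to 37.3 CPM. The part of these markers in its *Ccl3* and *Ccl4* was not tested. The lowest *Cxcl1*, *Cxcl2* and *Ccl2* were in the Hh-active-like *Penk*/*Egfl6* sub-cluster (8 and 122 cells), with 153, 22 and 85.4 CPM. The 46 dermal papilla-like cells, all of the SM22-SmoM2 library, had 565 CPM of *Cxcl1* and 6.39 CPM of *Cxcl12*, the lowest *Cxcl12* of the 14 sub-clusters.

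Across the 14 sub-clusters, *Cxcl1* moved with *Cxcl2* (Pearson's r 0.93) and *Ccl2* (r 0.84), *Ccl11* with *Cxcl14* (r 0.89) and *Ccl8* with *Cxcl9* (r 0.89), while *Ccl27a* and *Ccl7* moved in opposite ways (r -0.80). The summed level of 16 NF-kB response genes followed *Cxcl1* (r 0.82) and *Cxcl2* (r 0.80), and that of 12 immediate early genes, which also rise on tissue dissociation, followed *Cxcl1* less closely (r 0.46). These values describe 14 points that share 2 libraries. The *Nov*/*Sfrp4* sub-cluster was highest for *Cxcl1*, *Cxcl2* and the NF-kB sum, and r without it was not computed. The dermal papilla-like cells had an NF-kB sum of 1817 CPM but *Cxcl1* at 565 CPM, under the median of 661 CPM. The NF-kB sum was 3949.8 CPM in the *Nov*/*Sfrp4* sub-cluster and the immediate early sum 10351 CPM, against 491 and 3453 CPM in the *Penk*/*Egfl6* sub-cluster. The immediate early sum was 4415 CPM among control fibroblasts and 6643 CPM among SM22-SmoM2 ones, and its part in the ligand levels was not tested.

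**Figure D3:**
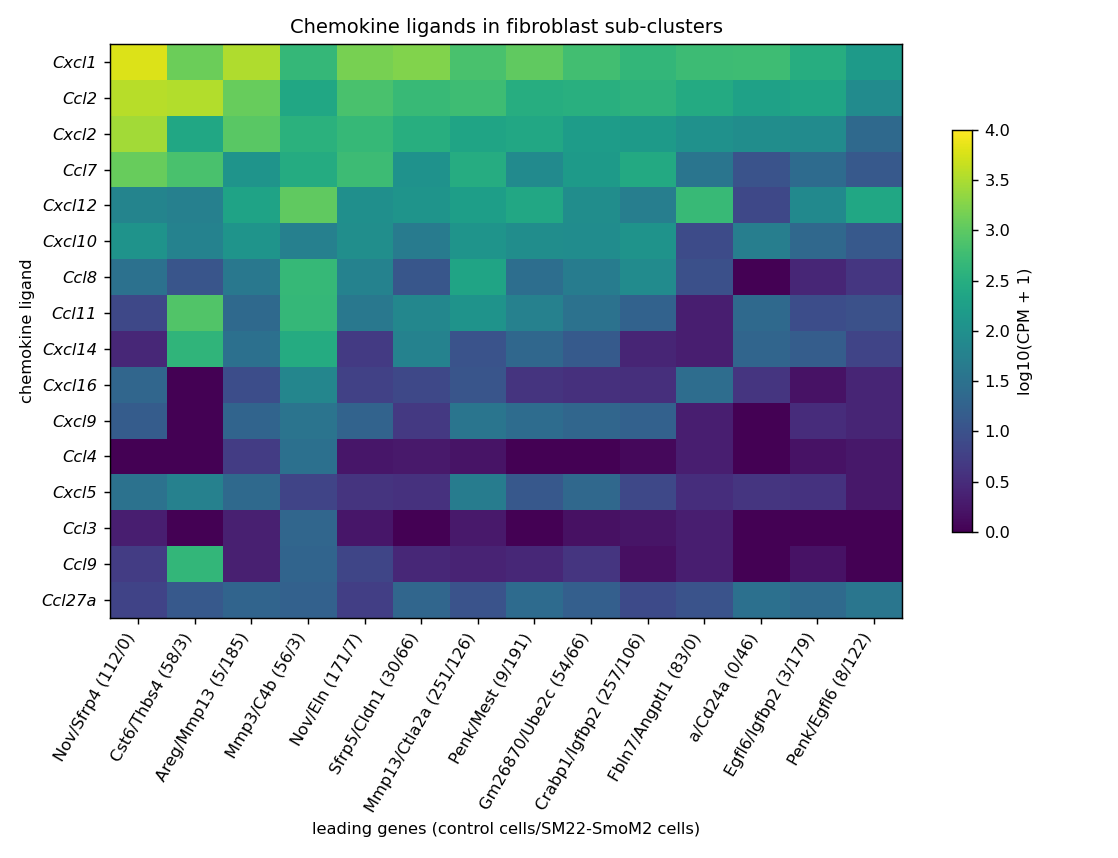
Levels of 16 ligands, as log10(CPM + 1), in the 14 fibroblast sub-clusters, ordered by their summed ligand level and named by 2 leading genes with the number of control and SM22-SmoM2 cells. Cxcl1, Ccl2 and Cxcl2 are highest at the left in Nov/Sfrp4, where no cell is of the SM22-SmoM2 library, while Ccl11 and Cxcl14 are highest in Cst6/Thbs4 and Mmp3/C4b.

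Because few sub-clusters held both libraries, the comparison was repeated in the 3 that had at least 50 cells of each (562 control and 298 SM22-SmoM2 cells). Here 2 of 17 ligands were at least 2-fold higher (all genes 3.25%) and 5 of 17 at least 2-fold lower (all genes 2.77%). The direction turned for *Cxcl1* (1.10, 1.03 to 1.17), *Cxcl2* (1.23, 1.10 to 1.36) and *Ccl2* (0.98, 0.90 to 1.06), which were all higher in SM22-SmoM2 cells. It was kept by *Cxcl5* (-2.39, -3.03 to -1.80), *Cxcl14* (-2.15, -3.42 to -1.09), *Ccl11* (-1.03, -1.31 to -0.76), *Ccl8* (-0.62, -0.79 to -0.45) and, with a much smaller gap, *Ccl7* (-0.29, -0.41 to -0.17). *Ccl27a*, more than 2-fold higher over all fibroblasts, had an interval that holds 0 here (0.41, -0.19 to 0.99). The log2 ratios of all fibroblasts without the *Nov*/*Sfrp4* sub-cluster were 0.85 for *Cxcl1*, 0.64 for *Cxcl2* and -0.066 for *Ccl2*, but -1.43 for *Ccl7* and -1.89 for *Ccl11*. This sub-cluster was picked for its ligand level and is all control, so higher ratios of its main ligands were built in.

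The 3 sub-clusters were not alike. *Cxcl1* was higher in SM22-SmoM2 cells of the *Crabp1*/*Igfbp2* sub-cluster, at 255 and 899 CPM (1.82, 1.69 to 1.95), and of the *Mmp13*/*Ctla2a* sub-cluster, at 409 and 1286 CPM (1.65, 1.55 to 1.75). In the cycling *Gm26870*/*Ube2c* sub-cluster it was lower, at 966 and 236 CPM (-2.03, -2.25 to -1.82). *Cxcl2* and *Ccl2* had the same signs as *Cxcl1* in each of the 3. *Ccl11* was lower in all 3, with log2 ratios of -1.87, -0.95 and -0.97, and was also lower in the *Sfrp5*/*Cldn1* sub-cluster, with 30 and 66 cells (-2.87, -3.65 to -2.14). *Cxcl5* was lower in all 3 as well, with -3.54, -2.08 and -4.11. *Ccl7* and *Ccl8* did not keep 1 sign, since *Ccl7* was 0.53 in *Mmp13*/*Ctla2a* and *Ccl8* was 0.62 in the cycling cells, although the interval of the latter holds 0.

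**Figure D4:**
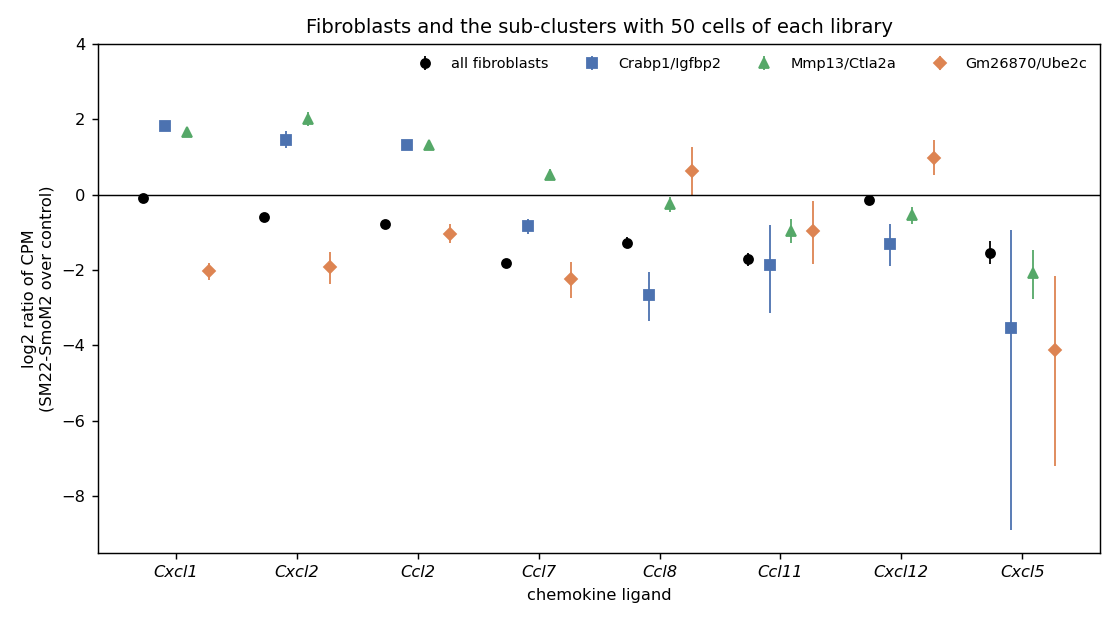
Log2 ratio of CPM, SM22-SmoM2 over control, for 8 ligands in all fibroblasts (black) and in each sub-cluster with at least 50 cells of both libraries; bars are 95% intervals for counting error only. Ccl11 and Cxcl5 lie below 0 in all 4 sets, while Cxcl1, Cxcl2 and Ccl2 lie above 0 in 2 sub-clusters and below it in the cycling one.

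Within the SM22-SmoM2 library, 743 Hh-active-like fibroblasts (at least 3 of 5 Hh target genes raised in their sub-cluster) were set beside 311 other fibroblasts of the same droplet run. These classes were called on sub-cluster levels over both libraries. The 46 dermal papilla-like cells also had at least 3 of the 5 raised, with 332 CPM of *Ptch1*, but formed a class of their own and were not compared here. The cycling sub-cluster (54 control and 66 SM22-SmoM2 cells) was classed as other with 86.4 CPM of the Hh target *Ptch1*. *Areg*/*Mmp13*, classed as Hh-active-like, had 95.2 CPM, and control fibroblasts 12.1 CPM. The other class may therefore hold Hh-active cells. The Hh-active-like cells had 5 of 19 ligands at least 2-fold higher (all genes 8.05%) and 5 of 19 at least 2-fold lower (all genes 6.91%). Of the higher ones, *Cxcl3* (41 and 1 UMIs), *Cx3cl1* (23 and 2) and *Ccl5* (23 and 5) reached 20 UMIs only through the Hh-active-like cells. Their place among the higher ligands was therefore partly built in. Lower were *Ccl8*, at 20.1 against 104 CPM (-2.37, -2.64 to -2.11), and *Ccl7*, at 72.1 against 245 CPM (-1.76, -1.91 to -1.61). *Cxcl9* (-1.18, -1.57 to -0.80), *Ccl12* (-1.63, -2.77 to -0.54) and *Ccl9* (-1.50, -2.92 to -0.13) were also lower. *Cxcl10* (-0.88, -1.06 to -0.71) and *Ccl11* (-0.86, -1.15 to -0.56) were lower by less than 2-fold, as was *Ccl2* (-0.34, -0.41 to -0.27). Higher were *Cxcl14*, at 18.6 against 3.07 CPM (2.60, 1.75 to 3.58), *Ccl27a* (1.04, 0.57 to 1.54), *Cxcl3* (4.28, 1.72 to 9.61), *Cx3cl1* (2.44, 0.42 to 5.57) and *Ccl5* (1.12, -0.31 to 2.87), whose interval holds 0. *Cxcl12* was at 185 against 94.2 CPM (0.97, 0.81 to 1.14) and *Cxcl1* at 1549 against 900.1 CPM (0.78, 0.73 to 0.84). Most of the class's *Cxcl1* UMIs (8108 of 12822) and *Cxcl3* UMIs (39 of 41) came from the *Areg*/*Mmp13* sub-cluster. Without it, a setting added after seeing the data, *Cxcl1* was lower in the other 558 Hh-active-like cells, at 798 against 900.1 CPM (-0.17, -0.24 to -0.11), *Cxcl2* turned from higher (0.43, 0.33 to 0.53) to lower (-0.84, -0.96 to -0.71), and *Ccl2* (-1.36, -1.45 to -1.27) and *Cxcl10* (-1.36, -1.57 to -1.15) passed 2-fold. The *Areg*/*Mmp13* sub-cluster was left out because its summed ligand level was the highest of the class, while all 311 other fibroblasts were kept. Lower ratios of its main ligands were therefore built into this setting. The intervals of *Cx3cl1* (1.21, -1.18 to 4.51) and *Ccl5* (0.54, -1.10 to 2.42) then held 0. In the same setting *Ccl12*, *Cxcl16*, *Ccl7* and *Ccl8* were lower by more than 2-fold. *Cxcl12* (0.89, 0.71 to 1.06), *Cxcl14* (2.37) and *Ccl27a* (1.15, 0.66 to 1.66) kept their direction. *Cxcl14*, lower in the SM22-SmoM2 library as a whole, was higher in its Hh-active-like cells than in its other cells. The control had the same order, with 109.3 CPM in its 55 Hh-active-like cells (60 UMIs) and 37.2 CPM in its other fibroblasts. These classes come from clusters of the same cells, although the ligands took no part in the clustering.

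Endothelial cells had few ligands at high levels. Of 13 with at least 20 UMIs, 0 were at least 2-fold higher in SM22-SmoM2 cells (all genes 1.39%) and 3 at least 2-fold lower (all genes 4.47%), namely *Ccl21a*, *Ccl7* and *Ccl27a*. *Ccl21a*, the lymphatic ligand that guides dendritic cells through *Ccr7*, was at 1413 and 246 CPM (-2.52, -2.67 to -2.38). Of its 8910 control UMIs, 8883 lay in 8 cells with UMIs of at least 2 of 5 lymphatic markers, and all 406 SM22-SmoM2 UMIs lay in 1 such cell. Per cell of this kind the levels were close, at 38686 CPM in the 8 control cells and 41023 CPM in the single SM22-SmoM2 cell. The 6 control cells with at least 10 *Ccl21a* UMIs had 1179 CPM of *Lyve1*, and the other 575 had 0.163 CPM. *Ccl7* had 6 and *Ccl27a* 3 SM22-SmoM2 UMIs, and the interval of *Ccl27a* holds 0 (-1.12, -3.50 to 0.59).

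*Cxcl12* was at 374 CPM (359 to 389) among control endothelial cells and 237 CPM (214 to 262) among SM22-SmoM2 ones (-0.66, -0.81 to -0.50). It was highest in the *Gja4*-led sub-cluster (1056 CPM), whose cells carried the arterial markers *Gja4* and *Gja5* and the capillary marker *Rbp7*, and where the libraries had 1045 and 1139.5 CPM (0.13, -0.059 to 0.31). That sub-cluster held 147 of 581 control and 34 of 216 SM22-SmoM2 cells. *Cx3cl1*, the membrane-bound ligand of *Cx3cr1*, was also highest there (19.2 CPM). *Cxcl10*, *Cxcl1*, *Cxcl2* and *Cxcl9* were highest in the *Csf3*-led sub-cluster, which carried the venular marker *Selp*, with 392 CPM of *Cxcl10* and 446 CPM of *Cxcl1*. Over all endothelial cells *Cxcl1* was at 223 and 308 CPM (0.46, 0.32 to 0.61), *Cxcl10* at 169 and 203 CPM (0.26, 0.076 to 0.44) and *Ccl2* at 51.6 and 33.4 CPM (-0.63, -1.07 to -0.21). Neither of the last 2 was stable: *Cxcl10* was lower in male endothelial cells (-0.40, -0.71 to -0.11) and -0.05 without the 5 top cells of each library, while 1 control cell held 126 of the 325 *Ccl2* UMIs and its ratio was 0.029 after thinning, but -0.78 without the 5 top cells. Leaving out 5 cells took a larger share of the 216 SM22-SmoM2 than of the 581 control cells, which favoured lower ratios.

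In Schwann cells, the glia that sheathe skin nerves, *Cxcl10* was at 317 and 308 CPM, the highest of the 5 lineages in both libraries, with a UMI in 28.5% and 28.3% of cells (53.2% and 50.3% before thinning), in 13.3% and 15.3% of endothelial cells and in 3.08% and 20.8% of immune cells. *Cxcl14* was at 143 CPM (132 to 154) and 214 CPM (194 to 236) (0.59, 0.41 to 0.77), the opposite sign to fibroblasts. It was higher in the *Mlana*/*Npy* sub-cluster (1.08, 0.83 to 1.33), while the intervals of the other 3 held 0 (-0.25, 0.033 and -0.54). A UMI of *Cxcl14* was found in 13.5% and 13.6% of Schwann cells (33.6% and 29% before thinning, median depth 5885 and 5478.5 UMIs), in 4.56% and 1.55% of fibroblasts and in 0.172% and 0% of endothelial cells. At least 50% of the SM22-SmoM2 Schwann UMIs were in 6 cells. Of 12 ligands, 5 were at least 2-fold lower (all genes 3.53%) and 0 at least 2-fold higher (all genes 1.79%). Lower were *Ccl2*, at 475 and 187 CPM (-1.34, -1.51 to -1.18), *Ccl7* (-1.73, -2.30 to -1.21), *Cxcl5* (-1.40, -2.21 to -0.68), *Ccl25* (-1.20, -2.28 to -0.26) and *Cxcl16* (-1.46, -3.17 to -0.086). *Ccl2* was lower in each of the 4 Schwann sub-clusters, with log2 ratios of -1.74, -1.42, -1.25 and -0.39. *Cxcl1* (-0.074, -0.18 to 0.031) and *Cxcl2* (-0.084, -0.22 to 0.051) had intervals that hold 0 over all Schwann cells, but in the interferon-response sub-cluster led by *Iigp1* they were higher in SM22-SmoM2 cells (1.64 and 1.77) and in the *Mlana*/*Npy* sub-cluster lower (-0.67 and -0.83).

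Mural cells, the pericytes and smooth muscle of vessels, had the highest *Ccl11* of all lineages, at 336 CPM (309 to 364) in the control and 212 CPM (174 to 255) in the SM22-SmoM2 library (-0.66, -0.97 to -0.37). It was lower in the 3 mural sub-clusters too, with -0.16, -0.59 and -0.85, though the interval of the first holds 0. *Ccl2* was at 829 and 885 CPM (0.094, -0.06 to 0.25) and *Cxcl1* at 1067 and 1411 CPM (0.40, 0.28 to 0.53). *Ccl2* was lower in the *Qpct*/*Adh7* (-1.21, -2.13 to -0.40) and *Mustn1*/*Lmod1* (-1.53, -2.33 to -0.82) sub-clusters, with -0.042 in the third, and *Cxcl1* was 0.77, -0.70 and 0.12 in the same order. The third, led by *Icam1*, held 87 of 261 control and 39 of 93 SM22-SmoM2 cells. Both were highest in the sub-cluster led by *Icam1*, with *Il6* and the stress genes *Hspa1a* and *Nr4a1* among its leading genes, with 2168 CPM of *Cxcl1* and 1614 CPM of *Ccl2* where the other mural sub-clusters had 416 to 442 and 223 to 353 CPM. Of 9 ligands, 1 was at least 2-fold lower (*Ccl27a*, on 2 SM22-SmoM2 UMIs; all genes 6.35%) and 0 at least 2-fold higher (all genes 2.24%). *Ccl19* had 18 UMIs in control mural cells and none in the SM22-SmoM2 library, where 3 UMIs would be 5.72 CPM.

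Immune cells were few (65 and 24), and single cells held many of their UMIs. The 2 immune sub-clusters held unequal shares of the libraries. A macrophage-like one, with *C1qa* and *C1qb* among its most abundant markers (4632 and 5201 CPM, against 24.4 and 39 CPM in the other), held 37 control and 23 SM22-SmoM2 cells, and an unnamed one, led by the lymphocyte genes *Ifng* and *Gzmc* but with the dendritic cell markers *Cd209a* and *Ccr7*, held 28 and 1. In the unnamed one the dendritic cell markers summed to 1493 CPM and the T cell markers to 4.88 CPM. *Ccl17* and *Ccl22*, which act on *Ccr4*, had 113 and 26 UMIs in control immune cells and none in SM22-SmoM2 ones, and 107 of the *Ccl17* UMIs were in 1 cell. *Ccl24* had 17 control UMIs, 16 of them in 1 cell.

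In macrophage-like cells the most abundant ligand was *Cxcl2*, at 9971 and 8525 CPM (-0.23, -0.31 to -0.14). *Ccl8*, *Ccl12* and *Ccl7* were higher in the SM22-SmoM2 library. *Ccl8* was at 443 and 3691 CPM (3.06, 2.79 to 3.33), *Ccl12* at 180.0 and 1077 CPM (2.58, 2.15 to 3.03) and *Ccl7* at 973 and 1810.0 CPM (0.90, 0.68 to 1.12). *Ccl8* had a UMI in 11 of 65 control and 18 of 24 SM22-SmoM2 immune cells, and 3 cells held 84.3% of the control and 58.1% of the SM22-SmoM2 UMIs. In endothelial cells *Ccl8* had a UMI in 0.688% and 0.926% of cells, unthinned like the immune counts, at a median depth of 8688 and 6175.5 UMIs, where that of immune cells was 6857 and 9064.5. In fibroblasts, also unthinned, the shares were 37.2% and 17.8%, at a median depth of 12471 and 10947.5 UMIs. Fibroblasts held 87.5% of all control *Ccl8* UMIs. Lower in SM22-SmoM2 macrophage-like cells were *Cxcl1*, at 2079 and 1033 CPM (-1.01, -1.23 to -0.79), *Ccl4* (-0.77, -1.03 to -0.52), *Ccl3* (-0.69, -0.97 to -0.42) and *Cxcl16* (-0.63, -0.99 to -0.29). *Ccl2* was at 919.8 and 976 CPM, with an interval that holds 0 (0.085, -0.18 to 0.35). Over all immune cells *Ccl6* was at 108 and 195 CPM and *Ccl9* at 308 and 112 CPM, both *Ccr1* ligands, and *Ccl5* had 15 and 3 UMIs. Of the *Ccl9* control UMIs, 77 of 154 were in 1 cell, and in macrophage-like cells alone its interval held 0 (-0.50, -1.29 to 0.27). Another 222 control *Ccl5* UMIs lay in 8 control cells of an immune sub-cluster with endothelial markers, left out as mixed.

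**Figure D5:**
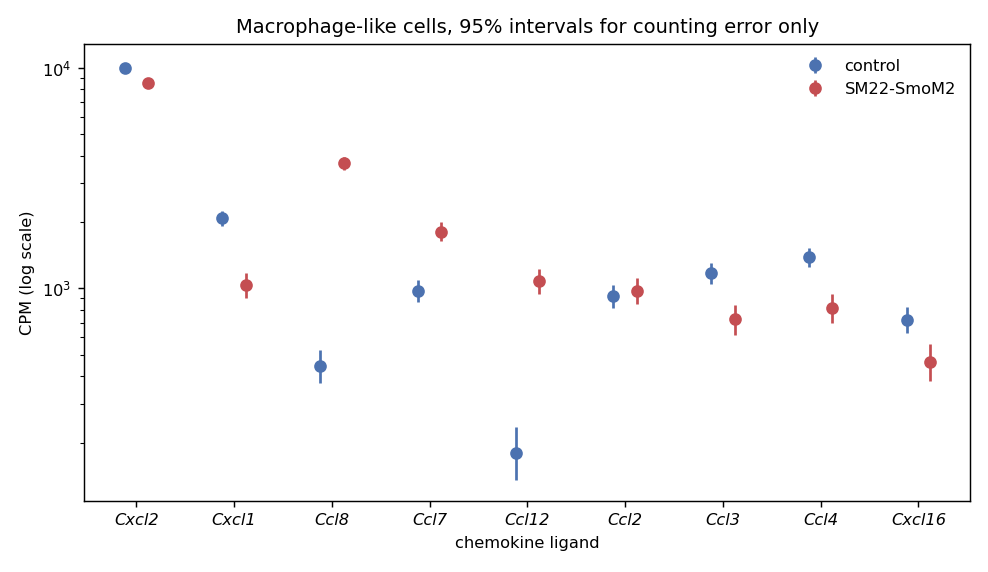
CPM on a log scale of 9 ligands in 37 control (blue) and 23 SM22-SmoM2 (red) macrophage-like cells; bars are 95% Poisson intervals for counting error only. Ccl8, Ccl7 and Ccl12 are higher in the SM22-SmoM2 library, Cxcl1, Ccl3, Ccl4 and Cxcl16 are lower, and the intervals of Ccl2 overlap.

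The matching receptors were sparse outside immune cells. Of 18 chemokine receptors, 6 had at least 20 UMIs in immune cells, 3 in fibroblasts, 1 in endothelial cells, 1 in Schwann cells and 0 in mural cells. In immune cells *Ccr7*, the receptor of *Ccl19* and *Ccl21a*, was at 206 and 8.65 CPM (-4.57, -7.64 to -2.68), *Ccr2*, the receptor of *Ccl2*, *Ccl7* and *Ccl12*, at 93.9 and 21.6 CPM (-2.12, -3.81 to -0.80), and *Ccr1* at 108 and 199 CPM (0.88, 0.28 to 1.48). Of the *Ccr7* UMIs, 104 lay in the unnamed immune sub-cluster with dendritic cell markers and 1 in the macrophage-like one. The former held 28 control cells and 1 SM22-SmoM2 cell, and the part of this mix in the immune receptor ratios was not tested. *Cxcr4* in fibroblasts was at 1.69 and 25 CPM (3.89, 3.29 to 4.55), while its ligand *Cxcl12* did not differ by 2-fold. Of the 5 atypical receptors, which bind or clear ligands without G protein signalling, *Ackr3* was in fibroblasts at 65.8 and 39.2 CPM (-0.75, -0.91 to -0.59) and *Ccrl2* was at 7.11 and 2.88 CPM (-1.30, -1.89 to -0.74). *Ackr1*, which carries chemokines across venules, was at 248 and 221 CPM in endothelial cells (-0.17, -0.34 to -0.0028). The NF-kB response list had a median log2 ratio of 0.025 in fibroblasts. Of 14 genes, 1 was at least 2-fold higher (all genes 6.32%), namely *Icam1* (2.0, 1.81 to 2.20), and 0 lower (all genes 6.25%).

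Cells with Y-linked UMIs and no *Xist* UMI, here called male, were 1454 of the control and 1134 of the SM22-SmoM2 cells. In these alone the fibroblast log2 ratios were -0.29 for *Cxcl1*, -0.92 for *Ccl2*, -1.84 for *Ccl7*, -0.82 for *Ccl8*, -1.57 for *Ccl11* and 1.41 for *Ccl27a*. In male Schwann cells *Ccl2* was -1.36 and *Cxcl14* 0.87, and in male mural cells *Ccl11* was -1.01.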

How the data were processed

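Per the labels, wound dermis was freed from epidermis with EDTA, digested with collagenase, and Tomato+ cells were sorted and made into 10x 3′ libraries. The authors ran Cell Ranger (bcl2fastq for base calls; versions not given in the sources used here) on mm10 and deposited raw UMI counts per gene and cell. The deposited barcode lists hold the whole kit, so barcodes shared by the libraries could not be counted.

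Here, cells with at least 200 genes and at most 10% mitochondrial UMIs were kept (22 control and 10 SM22-SmoM2 cells were removed). Counts were scaled to 10000 UMIs and logged, and 20 principal components of 2000 variable genes were split by k-means (K = 20, 50 starts). Chemokines, receptors and Hh markers (71 genes) took no part. Clusters were named from 7 markers per lineage and split again. The threshold for mixed sub-clusters was set after seeing them. Hh-active-like cells were those of sub-clusters in which, over both libraries together, at least 3 of 5 Hh targets were raised. Where more than 6 of 12 dermal papilla markers were raised as well, the cells were called dermal papilla-like and kept out of that class. Scrublet marked only 5 control and 11 SM22-SmoM2 cells, a rate at which it has not worked in the control, and none were removed in the main values.

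CPM are summed UMIs per 1000000 UMIs of the cells compared, with exact Poisson intervals, and log2 ratios have exact conditional intervals. A 0 was taken as 3 UMIs. Ligands with at least 20 UMIs in a comparison were counted and those with at least 200 over both libraries are described in full. The intervals were tried only on simulated Poisson counts, the error they assume, so that trial says nothing of spread between cells or mice. The members and lists were chosen with earlier results of these data known. Alternatives changed the mitochondrial limit, doublets, K, clustering genes, depth, averaging, the 5 top cells per lineage and library, and the minimum count. Keeping mixed sub-clusters, shared sub-clusters, male cells, leaving out lymphatic cells and leaving out the highest sub-cluster, of fibroblasts, endothelial or Hh-active-like cells, were chosen after seeing the data. The highest sub-cluster was picked by its summed ligand CPM. Tools were numpy 2.4.6, scipy 1.17.1, scikit-learn 1.9.0, scanpy 1.11.5 and pandas 2.3.3.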

Additional observations from a re-analysis of the deposited data

Results flagged for a closer look

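*Ccl7* and *Ccl8* had opposite signs in different lineages. The log2 ratio of *Ccl7* was 1.59 (1.37 to 1.81) in immune cells, on 295 control and 410 SM22-SmoM2 UMIs. It was -1.81 in fibroblasts and -1.73 in Schwann cells. In endothelial cells it was -1.26 (-2.77 to -0.048), on only 55 control and 6 SM22-SmoM2 UMIs. The log2 ratio of *Ccl8* was 3.75 (3.49 to 4.03) in immune cells and -1.27 in fibroblasts. Within macrophage-like cells alone the ratios were 0.90 for *Ccl7* and 3.06 for *Ccl8*. With 1 library per condition the difference between lineages was not tested.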

How the results depend on the processing

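No paired analysis was possible because each condition has 1 library. The summed log2 ratio of fibroblasts, -0.52, became 0.56 in the 3 shared sub-clusters. Without the *Nov*/*Sfrp4* sub-cluster, all control and picked for its high ligand level, the ratio became 0.10. It was -0.49 with K = 30, -0.65 after thinning, -0.64 as a mean per cell, -0.55 without the 5 top cells of each library and -0.65 in male cells. The count of ligands 2-fold higher in fibroblasts, 2, became 1 after thinning, without the 5 top cells or with a minimum of 50 UMIs, and the count 2-fold lower, 11, became 7 after thinning and 5 in shared sub-clusters. The count highest in fibroblasts, 5, became 3 after thinning, 12 without the 5 top cells and 3 in male cells. The same 5 cells were left out of 24 SM22-SmoM2 immune cells as of 1100 fibroblasts. A larger fall of immune levels was therefore built into the 12.

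In endothelial cells the summed ratio was -1.07 and became -0.11 without cells with 2 lymphatic markers and 0.034, a change of sign, without the *Ackr1*-led sub-cluster. That sub-cluster, picked for its high ligand level, held 8611 of the 8910 control and all 406 SM22-SmoM2 *Ccl21a* UMIs. The 2 settings are therefore not separate checks. The summed ratio was -1.48 with at most 5% mitochondrial UMIs, -0.19 without Scrublet doublets, -0.19 with K = 12, -0.15 with K = 30, -0.19 with chemokines kept for clustering, -0.31 after thinning, -0.38 as a mean per cell, -0.39 without the 5 top cells, -0.80 with mixed sub-clusters kept and -1.0 in male cells. The count of ligands 2-fold lower, 3, became 1 after thinning and 7 without the 5 top cells. Those 5 were a larger share of the 216 SM22-SmoM2 than of the 581 control endothelial cells, so this setting favoured lower ratios. *Ccl27a* in endothelial cells turned to 0.12 with mixed sub-clusters kept. Apart from the lymphatic cells, left out by construction, the cause was not tested. Of the ratios of single ligands under the alternatives that were not added after seeing the data, 268 stayed within their counting interval and 43 did not. Few cells stand behind the immune and mural values, with 24 and 93 in the SM22-SmoM2 library.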
